A study of Mus musculus with 6 samples.

Results

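Acute phase proteins are secreted in large amounts during inflammation, and 8 genes of this class were examined in the visceral fat of obese mice: Saa1, Saa2, Saa3, Lcn2, Hp, Orm1, Itih4 and Serpina3n. Members were the probe sets annotated with exactly 1 gene symbol on this list, with the brightest probe set kept where a symbol had several. Each of the 8 symbols had 1 probe set, so the 8 members are 8 of the 19938 genes on the array. Of these, 5 lay above the limit for dim genes (a mean log2 intensity of 6.83, which is 114 in intensity) and were among the 11963 genes tested, namely Saa3, Lcn2, Hp, Orm1 and Serpina3n. Saa1, Saa2 and Itih4 lay below it and are given as values. The probe sets were selected on measured values, the mean intensity over all 6 arrays, and the list itself was drawn up with earlier results of these arrays in view, Saa3 and Lcn2 having been seen to differ between the group means.

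All mice were male C57BL6/J mice that ate a high-fat diet for 12 weeks, beginning at 6 weeks of age, and RNA came from their epididymal white adipose tissue (eWAT), which is visceral fat. Some time into the diet a recombinant adeno-associated virus (rAAV) of the Rec2 serotype had been injected into this depot on both sides. It carried yellow fluorescent protein in the control group, named rAAV-YFP, or Lmo3, a LIM-only transcriptional cofactor, in the rAAV-Lmo3 group. The cassette was driven by a hybrid of a cytomegalovirus enhancer and a chicken β-actin promoter, which is not restricted to adipocytes. Each group had 3 arrays, and each array held the pooled RNA of 2 mice, so that every error is a spread between pools. The treatment text of the labels names the control vector rAAV-LacZ, and the name in the sample titles is kept.

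The Lmo3 probe set did not separate the groups. Its intensities were 25, 24 and 24 in the rAAV-YFP pools and 24, 26 and 24 in the rAAV-Lmo3 pools, a log2 difference of 0.02 ± 0.07 (SE, n = 3 per group) below the limit for dim genes. Whether this probe set covers the delivered sequence was not tested. All 11 adipocyte markers with a probe set lay above the limit and none of the 12 epididymal epithelium markers did. The arrays rAAV-YFP 2 and rAAV-Lmo3 1 stood apart, with mean correlations to the other arrays over the tested genes of 0.962 and 0.959, against 0.973 to 0.977 for the other arrays. Results for the members are therefore given with and without these arrays.

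The acute phase response is switched on by the cytokines IL-1, TNF and IL-6, which act through NF-kB, C/EBP and STAT3, and glucocorticoids raise the transcription of several of its genes. Saa1 and Saa2 are made chiefly by the liver and carried in plasma on high-density lipoprotein, whereas Saa3 is made locally by adipocytes and macrophages. Fat is also a source of lipocalin 2, which binds bacterial siderophores and small lipophilic ligands, of the haemoglobin binder haptoglobin (Hp), of the plasma carrier orosomucoid (Orm1) and of the serine protease inhibitor Serpina3n. Itih4 is an inter-alpha-trypsin inhibitor heavy chain secreted mainly by the liver.

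The stretches upstream of the transcription start show which of these regulators have a recognisable motif at the members. RefSeq windows of 250 bases (GRCm38.p6) were found for 6 of the 8 members, all but Hp and Orm1. The windows below run 5′ to 3′ on the strand of the gene and end at the base before the start, and capitals mark a motif match on either strand. Saa3 and Lcn2 are shown because they varied most between arrays, Saa1 as the liver-type relative of Saa3, and Serpina3n as a tested member whose window held another motif. The Saa3 window is chr7:46715677-46715926 on the minus strand, that of Lcn2 is chr2:32387740-32387989 on the minus strand, that of Saa1 is chr7:46742981-46743230 on the minus strand, and that of Serpina3n is chr12:104406458-104406707 on the plus strand.
Saa3: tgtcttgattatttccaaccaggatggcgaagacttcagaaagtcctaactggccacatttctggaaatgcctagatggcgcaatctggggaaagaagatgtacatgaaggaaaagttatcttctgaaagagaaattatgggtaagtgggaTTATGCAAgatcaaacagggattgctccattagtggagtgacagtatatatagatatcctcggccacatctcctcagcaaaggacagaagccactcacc
Lcn2: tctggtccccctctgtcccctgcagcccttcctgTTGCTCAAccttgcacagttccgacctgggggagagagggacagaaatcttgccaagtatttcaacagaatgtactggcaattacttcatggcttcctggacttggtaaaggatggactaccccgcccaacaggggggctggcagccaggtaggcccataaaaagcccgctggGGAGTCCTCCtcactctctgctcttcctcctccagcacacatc
Saa1: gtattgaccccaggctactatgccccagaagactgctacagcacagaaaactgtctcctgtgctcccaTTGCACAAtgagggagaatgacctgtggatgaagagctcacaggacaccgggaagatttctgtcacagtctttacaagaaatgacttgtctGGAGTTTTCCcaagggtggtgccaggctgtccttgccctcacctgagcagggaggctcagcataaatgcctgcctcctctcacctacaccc
Serpina3n: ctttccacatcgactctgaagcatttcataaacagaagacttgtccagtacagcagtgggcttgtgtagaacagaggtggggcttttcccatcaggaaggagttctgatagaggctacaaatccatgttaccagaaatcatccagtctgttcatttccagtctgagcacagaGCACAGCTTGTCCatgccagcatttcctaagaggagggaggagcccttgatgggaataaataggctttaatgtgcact

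A C/EBP motif (TTGCNNAA) was present in 4 of the 6 windows, those of Saa1, Saa2, Saa3 and Lcn2, and in 9.564% of all 32851 windows of this length. In Saa3 its first base lay 99 bases upstream of the start, in Saa1 182, in Saa2 183 and in Lcn2 216. An NF-kB pattern that allows A or G after its opening GG was matched in Lcn2, 43 bases upstream, and in Saa1, 91 bases upstream. Of all windows 9.549% held this pattern, and both matches had A at that base. Serpina3n alone among the 6 held a glucocorticoid receptor motif (an inverted repeat around a spacer, in capitals above), 78 bases upstream, which 0.3866% of all windows held. Itih4 held a STAT motif (TTCNNNGAA), 51 bases upstream, which 7.02% of all windows held. The exact TATA box letters TATAAA were in none of the 6 windows and in 12.37% of all windows. The Saa1 and Saa2 windows were 94.82% identical over 251 aligned columns, so that their C/EBP matches, of the same letters, are not independent. Those of Saa1 and Saa3 were 48.51% identical. No matches overlapped within a window. They describe letters in the sequence, and binding was not measured.

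Saa3 and Lcn2 were the members with the widest range between arrays. The Saa3 intensities were 510, 161 and 824 in the rAAV-YFP pools and 475, 1791 and 956 in the rAAV-Lmo3 pools. The lowest value was that of rAAV-YFP 2 and the highest that of rAAV-Lmo3 2, and the groups overlapped because rAAV-Lmo3 1 lay below rAAV-YFP 1 and 3. On the log2 scale the means were 8.67 ± 1.21 (SD, n = 3) and 9.87 ± 0.96, and the difference, rAAV-Lmo3 minus rAAV-YFP, was 1.20 ± 0.69 (SE), which is 2.29-fold. The 95% interval ran from -0.45 to 2.84 and the limma adjusted p over all genes tested was 0.970.

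Lcn2 gave much the same picture. Its intensities were 604, 190 and 634 in the rAAV-YFP pools and 474, 1542 and 1390 in the rAAV-Lmo3 pools. Again rAAV-YFP 2 was the lowest, rAAV-Lmo3 2 and 3 were above every control, and rAAV-Lmo3 1 lay among the controls. The means were 8.71 ± 0.98 (SD, n = 3) and 9.97 ± 0.94 in log2 intensity, with a difference of 1.27 ± 0.61 (95% interval -0.19 to 2.73), which is 2.41-fold. The limma adjusted p was 0.970, and the exact two-sided permutation p was 0.3 for Lcn2 as for Saa3, where 3 pools against 3 cannot go below 0.1.

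Hp, bright on every array, was 9384, 5990 and 8808 in the rAAV-YFP pools and 8152, 11259 and 9913 in the rAAV-Lmo3 pools. Here rAAV-YFP 2 was once more the lowest array and rAAV-Lmo3 2 the highest, within a range of 1.88-fold. The log2 means were 12.95 ± 0.35 (SD, n = 3) and 13.24 ± 0.23, and the difference was 0.29 ± 0.20 (95% interval -0.18 to 0.77, limma adjusted p = 0.970, exact permutation p = 0.4).

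Orm1 and Serpina3n differed by little between the group means. Orm1 intensities were 2154, 1949 and 2984 in the rAAV-YFP pools and 1901, 2701 and 2190 in the rAAV-Lmo3 pools, a log2 difference of -0.05 ± 0.19 (95% interval -0.52 to 0.41). Serpina3n, bright on every array, was 6140, 4329 and 7253 in the rAAV-YFP pools and 3356, 7881 and 6843 in the rAAV-Lmo3 pools, a log2 difference of -0.03 ± 0.35 (95% interval -0.86 to 0.80). In both genes rAAV-Lmo3 1, not rAAV-YFP 2, was the lowest array. The interval of Serpina3n still allows a change of over 0.5 in either direction on the log2 scale.

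The dim members showed no such range. Saa1 intensities were 13, 15 and 15 in the rAAV-YFP pools and 15, 18 and 14 in the rAAV-Lmo3 pools, and Saa2 intensities were 23, 23 and 19 against 24, 24 and 21. Itih4 was 81, 82 and 85 in the rAAV-YFP pools and 88, 82 and 67 in the rAAV-Lmo3 pools. In a fit without the limit for dim genes the log2 differences were 0.12 ± 0.12 for Saa1, 0.09 ± 0.10 for Saa2 and -0.07 ± 0.11 for Itih4. Within the Saa family, then, the arrays on which Saa3 ranged 11.1-fold gave no level above the limit for Saa1 or Saa2.

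**Figure D1:**
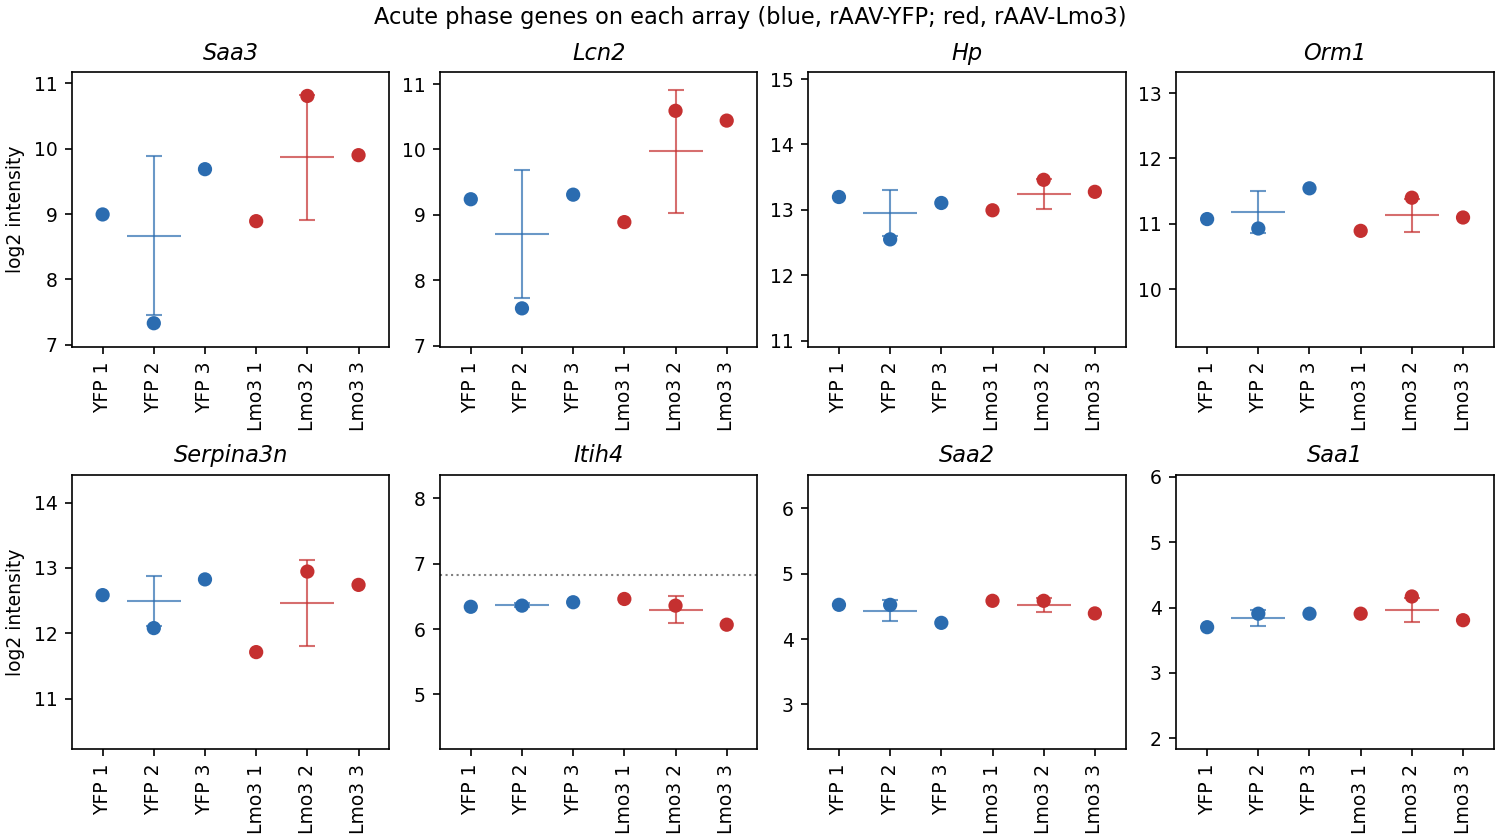
Log2 intensity of the 8 acute phase genes on the 3 rAAV-YFP arrays (blue) and the 3 rAAV-Lmo3 arrays (red), with horizontal lines at the group means, error bars of 1 SD and the limit for dim genes (6.83) dotted where it falls within a panel, all panels spanning the same height. Saa3 and Lcn2 spread over more than the other members, with rAAV-YFP 2 lowest, and the groups overlap for all 8 genes.

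Of the 5 tested members 3 lay above 0 and 2 below, with a median log2 difference of 0.29, where the median of all 11963 genes was 0.000763. At an unadjusted p under 0.05 there were 0 of 5 members, against 4.66% of all genes tested, and members with groups that did not overlap were 0 of 5, against 10.5% of all genes. No gene of the whole array passed an adjusted p of 0.05 in limma (0 of 11963), and the smallest adjusted p was 0.669. By size of the difference alone Lcn2 ranked 4 and Saa3 ranked 5 of 11963 genes, and Hp ranked 783. By SD over the 6 arrays regardless of group, Saa3 ranked 6 (SD 1.18) and Lcn2 ranked 12 (SD 1.11), Serpina3n 428 (0.48), Hp 1305 (0.31) and Orm1 1951 (0.26). A fat depot is a mixture of cells, and a change in the number of cells of one type cannot be told apart here from a change in RNA per cell.

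How far these differences rest on single arrays was read by leaving arrays out. Without rAAV-YFP 2 the log2 difference of Saa3 was 0.53 ± 0.56 and that of Lcn2 was 0.70 ± 0.52 (limma adjusted p = 0.999 for both), and the groups still overlapped. Without rAAV-Lmo3 1 it was 1.68 ± 0.68 for Saa3 and 1.81 ± 0.52 for Lcn2 (limma adjusted p = 0.831 for both). Saa3, Lcn2 and Hp (0.42 ± 0.20) then lay higher with no overlap, which makes 3 of 5 members against 10.3% of all genes. Saa3 and Lcn2 had an unadjusted p under 0.05 in that direction (2 of 5, against 2.49% of all genes). Both had been seen to differ on these arrays when the list was drawn up, and rAAV-Lmo3 1 was the array that made their groups overlap. Neither these counts nor those below are therefore a test of the class.

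With both arrays left out, which leaves 2 against 2, Lcn2 was 1.24 ± 0.09 higher (limma adjusted p = 0.0970, rank 2 by p among all genes tested). Saa3 was 1.01 ± 0.35 higher and Hp 0.22 ± 0.10 higher (adjusted p = 1 for both). All 3 lay higher without overlap, where 13.4% of all genes did, and 2 of 5 had an unadjusted p under 0.05 in that direction, against 2.36% of all genes. With all 6 arrays kept but weighted by their quality in limma, the same 2 members, Saa3 (1.27 ± 0.53) and Lcn2 (1.44 ± 0.40), had an unadjusted p under 0.05 in that direction, against 2.92% of all genes, with adjusted p of 0.803 and 0.734. Without both arrays Orm1 was -0.06 ± 0.18 and Serpina3n 0.14 ± 0.12. The difference of Lcn2 was thus 1.27 with and 1.24 without these arrays, while its SE was 0.61 and 0.09, and the choice of arrays was made with their values known.

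**Figure D2:**
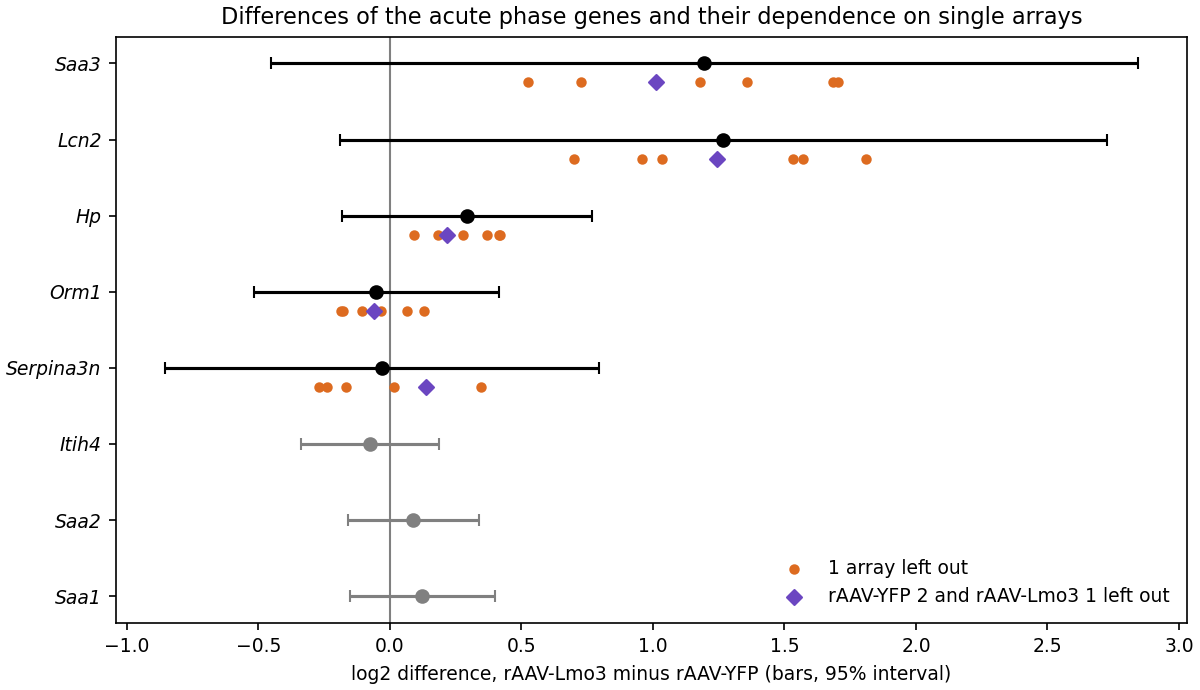
Log2 difference between rAAV-Lmo3 and rAAV-YFP for the 8 genes, with 95% intervals (black for tested members, grey for dim ones), and beneath each tested member the differences with 1 array left out (orange) and with both arrays that stood apart left out (purple diamonds). The values for Saa3 run from 0.53 to 1.70 and those for Lcn2 from 0.70 to 1.81 with 1 array left out, while those for Orm1 and Serpina3n fall on both sides of 0.

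Saa3, Lcn2 and Hp moved most closely together across arrays. Over the 6 arrays the Pearson correlation of log2 values was 0.958 between Saa3 and Lcn2, 0.955 between Saa3 and Hp, and 0.962 between Lcn2 and Hp, and it was 0.819 between Orm1 and Serpina3n. Over all 10 pairs it lay between 0.524, for Lcn2 with Orm1, and 0.962. After the group means were removed it lay between 0.714 and 0.957, so that the shared movement was also present among pools that received the same vector. Orm1 and Serpina3n were not a pair of their own there, since Orm1 then went with Saa3 at 0.912 and with Serpina3n at 0.821, and Serpina3n with Lcn2 at 0.943 and with Saa3 at 0.898. These are descriptions over 6 arrays that share their normalization. In each group the mean profile of the members was lowest on the array that stood apart (-0.98 on rAAV-YFP 2 and -0.39 on rAAV-Lmo3 1). Correlations between other genes were not counted, so these values show no trait of the class.

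Differences between members within an array were compared as log2 ratios, a comparison chosen after the values were seen. For Lcn2 over Serpina3n, with the rAAV-YFP mean set to 0, the log2 ratios were 0.44, -0.72 and 0.27 in the rAAV-YFP pools and 0.97, 1.44 and 1.49 in the rAAV-Lmo3 pools. Here rAAV-Lmo3 1 no longer fell among the controls. Its log2 level of Lcn2 was 8.89, near the rAAV-YFP mean of 8.71, whereas that of Serpina3n was 11.71, the lowest of the 6 arrays, against a mean of 12.50, so that its ratio rests mostly on Serpina3n. For Saa3 over Serpina3n the ratios were 0.24, -0.92 and 0.69 against 1.00, 1.69 and 0.99, likewise without overlap. The ratio differed between groups by 1.30 ± 0.40 for Lcn2 and by 1.23 ± 0.53 for Saa3, each with the smallest exact permutation p that 3 against 3 allows (0.1, adjusted over 10 pairs 0.4). The groups overlapped for the other 8 of the 10 pairs.

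Further positive acute phase genes were taken from a list of 42, of which 30 had a probe set with a single symbol and 14 were tested. They did not move as 1 block. Of the 14, 7 lay above 0 and 7 below, with a median log2 difference of 0.01, 0 had an unadjusted p under 0.05, and 1 of 14 had groups that did not overlap, Steap4, a metalloreductase of fat (-0.20 ± 0.12, and -0.08 without rAAV-Lmo3 3), in that direction against 5.95% of all genes. The range ran from -0.43 ± 0.50 for Agt, the precursor of angiotensin, to 0.62 ± 0.31 for S100a8, a calcium-binding protein of myeloid cells.

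The smallest p values of this list were those of Hpx, S100a8 and Mt2. Hpx, the plasma haem binder, had intensities of 154, 157 and 119 in the rAAV-YFP pools and 153, 176 and 227 in the rAAV-Lmo3 pools (0.36 ± 0.18, limma adjusted p = 0.970). S100a8 had 142, 127 and 178 against 137, 292 and 290 (limma adjusted p = 0.970). As for Lcn2, rAAV-Lmo3 1 lay among the controls and rAAV-Lmo3 2 and 3 above them. Mt2, a metallothionein, had 10438, 8807 and 8893 against 5987, 8932 and 8450 (-0.29 ± 0.17), with rAAV-Lmo3 1 far below the rest, and -0.11 ± 0.11 without that array.

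Without both arrays that stood apart, 3 of the 14 had an unadjusted p under 0.05, against 4.2% of all genes, namely S100a8 (0.87 ± 0.13, limma adjusted p = 0.460), Hpx (0.56 ± 0.17) and Agt (-0.54 ± 0.15). Without rAAV-Lmo3 1 alone there were 4, with Orm3 (-1.11 ± 0.43) beside the same genes, against 4.8% of all genes.

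The array on which each gene was lowest is given as a description. The share of all genes that were lowest on the arrays that stood apart was not counted, so the counts show no trait of the class. The array rAAV-YFP 2 was the lowest for 3 of the 5 members, Saa3, Lcn2 and Hp, and for 5 of the 14 further genes, Orm2, Cd14, Cfb, Ptx3 and S100a8. The array rAAV-Lmo3 1 was the lowest for the 2 other members, Orm1 and Serpina3n, and for 4 further genes, Lbp, Lrg1, Mt1 and Mt2. Lbp, which carries bacterial lipopolysaccharide to Cd14, had 5500, 4326 and 6760 in the rAAV-YFP pools and 2855, 6972 and 6068 in the rAAV-Lmo3 pools. Lrg1, a leucine-rich glycoprotein of plasma, had 4356, 2763 and 6080 against 2306, 7116 and 5861.

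Lbp and Lrg1 thus ran as Serpina3n does, low on both arrays and lowest on rAAV-Lmo3 1. Agt ran the other way, with 784, 1837 and 851 against 1587, 652 and 486, so that both arrays that stood apart were the highest. Orm3, a relative of Orm1, had 73, 187 and 195 against 283, 70 and 59, highest on rAAV-Lmo3 1 where Orm1 was lowest.

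The genes that followed the mean profile of the 5 members most closely came from 374 genes with an SD of at least 0.5 over the arrays. By Pearson correlation over 6 arrays they were Gys2, the liver-type glycogen synthase (0.978), Anxa8, an annexin (0.972), Col6a5, a collagen VI chain (0.959), Ccl8, a monocyte chemokine (0.957), Pcolce2, a procollagen C-proteinase enhancer (0.955), and Slc5a7, a choline transporter (0.949). The profile is an unscaled mean, in which Saa3 and Lcn2 (SD 1.18 and 1.11) weigh most. For all 6 the lowest array was rAAV-YFP 2 and the highest was rAAV-Lmo3 2 or 3, which selection by this profile favours. The groups overlapped for all 6. Their log2 differences ranged from 0.32 ± 0.38 for Pcolce2 to 0.93 ± 0.60 for Gys2.

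**Figure D3:**
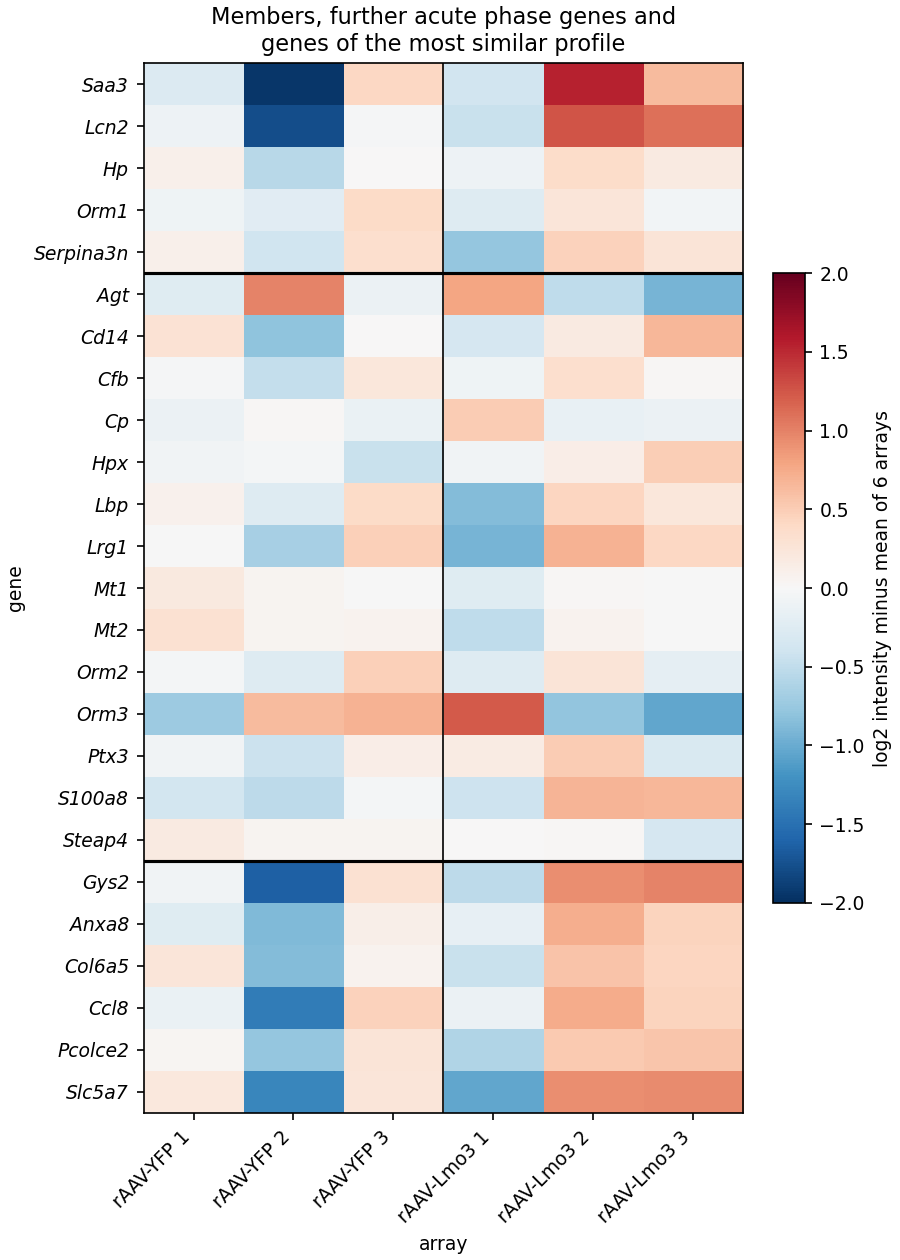
Log2 intensity minus the mean of the 6 arrays, one column per array and one row per gene, for the 5 tested members (top), the 14 further acute phase genes tested (middle) and the 6 genes of the most similar profile (bottom), on a colour scale from blue (low) to red (high). Saa3, Lcn2 and the bottom 6 are lowest on rAAV-YFP 2, Serpina3n, Lbp and Lrg1 are lowest on rAAV-Lmo3 1, and Agt and Orm3 run opposite to them on rAAV-Lmo3 1.

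Of the genes upstream of the response, the inducing cytokines were mostly dim. Only 2 of the 11 with a probe set were tested, Tnf (124, 113 and 128 against 146, 124 and 145, log2 difference 0.18 ± 0.10) and Clcf1, a cytokine of the IL-6 family (-0.01 ± 0.09). The intensities of Il6 lay between 16 and 21 and those of Il1b between 61 and 97, below the limit for dim genes.

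The direction of the cytokine receptors and signal transducers depended on rAAV-Lmo3 1. Of 14 tested, 11 were below 0 and 3 above with all arrays, with a median of -0.07, whereas 6 were below and 8 above without that array, with a median of 0.01. With all arrays 2 had an unadjusted p under 0.05 and lay lower, where 2.4% of all genes did. Il6ra, the IL-6 receptor subunit, had intensities of 959, 804 and 824 in the rAAV-YFP pools and 625, 742 and 704 in the rAAV-Lmo3 pools (-0.32 ± 0.11, limma adjusted p = 0.970). Every rAAV-Lmo3 array was below every control, as also for Il17ra, a subunit of the IL-17 receptor (265, 248 and 284 against 214, 243 and 228, -0.22 ± 0.09), Tnfrsf1a, a TNF receptor (-0.18 ± 0.08), and Lifr, the receptor of leukaemia inhibitory factor (-0.16 ± 0.08). These 4 of 14 stand against 5.95% of all genes that lay lower without overlap. Without rAAV-Lmo3 1 or without rAAV-YFP 1, Il6ra (-0.25 ± 0.11 and -0.24) and Il17ra (-0.17 ± 0.09 and -0.22) no longer had an unadjusted p under 0.05, nor did Il17ra without rAAV-YFP 3 or rAAV-Lmo3 3, and Tnfrsf1a was at -0.12 ± 0.08 without rAAV-Lmo3 1.

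Among 11 tested transcription factors 6 lay above 0 and 5 below, with a median of 0.00493. Rela, an NF-kB subunit, lay lower on every rAAV-Lmo3 array (1088, 1236 and 1107 against 921, 991 and 999, -0.24 ± 0.09, limma adjusted p = 0.970). Its unadjusted p was not under 0.05 without rAAV-YFP 2 (-0.18) or without any 1 of the rAAV-Lmo3 arrays (-0.20 to -0.26). Cebpb, a C/EBP form induced in inflammation, was at 0.07 ± 0.08 and Nfkbiz, an NF-kB cofactor that promotes Lcn2 transcription, at 0.10 ± 0.08. Cebpd, another C/EBP gene of this list, was at -0.17 ± 0.22.

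Among 13 feedback inhibitors 6 lay above 0 and 7 below, with a median of -0.07. Tsc22d3, a glucocorticoid-induced inhibitor of NF-kB, was 783, 999 and 752 in the rAAV-YFP pools and 724, 518 and 522 in the rAAV-Lmo3 pools (-0.53 ± 0.17, limma adjusted p = 0.970). The groups did not overlap, but the unadjusted p was not under 0.05 without rAAV-YFP 2 (-0.40), rAAV-Lmo3 2 (-0.45) or rAAV-Lmo3 3 (-0.45). Tnip1, a partner of A20, was at -0.23 ± 0.14 (-0.10 ± 0.12 without rAAV-Lmo3 1), the phosphatase Dusp1 at -0.20 ± 0.15 (-0.07 ± 0.12 without it), and Socs3, which restrains STAT3 signalling, at 0.22 ± 0.25.

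Of 10 receptors and clearance partners of the acute phase proteins 4 lay above 0 and 6 below, with a median of -0.14. Tlr2, a receptor to which serum amyloid A binds, lay higher on every rAAV-Lmo3 array (281, 240 and 264 against 450, 290 and 321, 0.41 ± 0.17, limma adjusted p = 0.970). It was the 1 gene of 10 with an unadjusted p under 0.05 and higher, where 2.27% of all genes were, and the 1 of 10 that was higher without overlap, where 4.53% were. In this gene rAAV-Lmo3 1, low for the members, was the highest array, and without it the difference was 0.22 ± 0.10 and the unadjusted p no longer under 0.05. The same p was lost without each other array save rAAV-Lmo3 2, with array weights (0.24 ± 0.12) and by the methods' t-test. Slc22a17, a receptor for lipocalin 2, was at -0.27 ± 0.12 and Cd163, the macrophage receptor for haptoglobin bound to haemoglobin, at -0.22 ± 0.12. Ager, another receptor on this list, was the 1 of 10 that lay lower without overlap (-0.14 ± 0.08), where 5.95% of all genes did. Over these 5 groups of genes 50 were tested, 1 lay higher and 4 lower at an unadjusted p under 0.05, which is 10% against 4.66% of all genes, and 0 passed after adjustment in limma. None of these 5 genes kept an unadjusted p under 0.05 whichever array was left out. Of the 5, 1 remained without rAAV-Lmo3 3 (Il6ra), 1 without rAAV-Lmo3 1 (Tsc22d3, with Tnfaip3 and Cd163 called anew), 2 without rAAV-YFP 2, 2 without rAAV-YFP 1, and 3 without rAAV-YFP 3 or without rAAV-Lmo3 2.

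**Figure D4:**
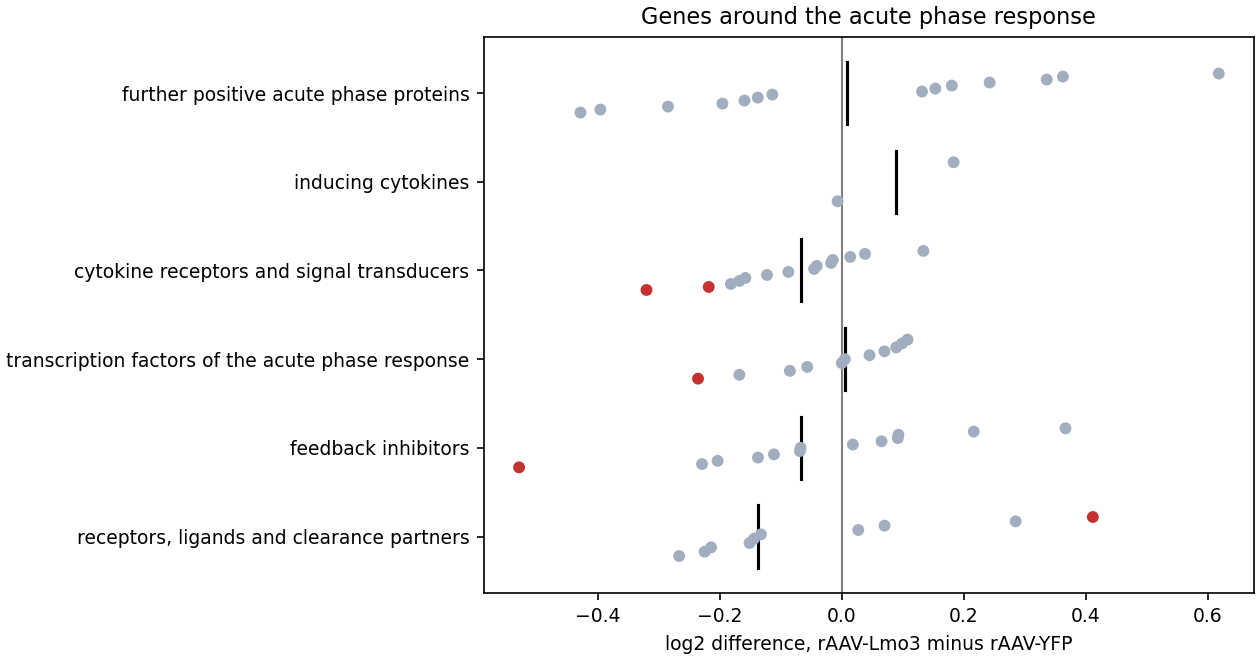
Log2 difference between rAAV-Lmo3 and rAAV-YFP for each tested gene of 6 groups around the acute phase response (points, red where the unadjusted limma p is under 0.05), with a black line at the median of each group. The medians lie between -0.14 and 0.09, and 5 of the points are red, Il6ra, Il17ra, Rela and Tsc22d3 below 0 and Tlr2 above.

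Markers of the cell types that eWAT can hold were read on the same arrays. The summed intensity of 15 macrophage markers was 37293, 18337 and 29084 in the rAAV-YFP pools and 22252, 33403 and 37384 in the rAAV-Lmo3 pools. All 15 lay above the limit for dim genes. The lowest arrays were rAAV-YFP 2 and rAAV-Lmo3 1, the same arrays on which Saa3 and Lcn2 were lowest, but rAAV-YFP 1 held as much macrophage signal as rAAV-Lmo3 3 and less Saa3 and Lcn2. Of these markers 12 lay above 0 and 3 below, but 3 above and 12 below without rAAV-YFP 2. With all arrays 1 of 15, Mertk, an efferocytosis receptor, had an unadjusted p under 0.05 and lay lower (-0.27 ± 0.10), where 2.4% of all genes did, and it did not without rAAV-YFP 1, rAAV-YFP 2, rAAV-Lmo3 1 or rAAV-Lmo3 3. The part of macrophages in the level of the members was not tested.

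Neutrophil markers are of interest because lipocalin 2 and haptoglobin are stored in neutrophil granules. Only 2 of 11, S100a8 and Csf3r, lay above the limit, and Ly6g, Mpo, Elane, Camp and Ltf did not. The summed intensity of all 11 was 796 to 829 in the rAAV-YFP pools and 829 to 991 in the rAAV-Lmo3 pools. S100a8 had the widest range among them (142, 127 and 178 against 137, 292 and 290). S100a9, below the limit, had 97, 87 and 84 against 135, 86 and 93. It was highest on rAAV-Lmo3 1, where S100a8 lay among the controls. Of the hepatocyte markers 3 of 12 lay above the limit, Alb, Apoa1 and Apoa2, and their list summed to 895 to 1770 against 932 to 1981. Albumin (Alb) had intensities of 442, 556 and 116 in the rAAV-YFP pools and 696, 128 and 164 in the rAAV-Lmo3 pools, highest on rAAV-Lmo3 1 and rAAV-YFP 2, where Saa3 and Lcn2 were lowest.

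Mesothelial markers (7 of 10 above the limit) summed to 1274 to 2748 in the rAAV-YFP pools and 1179 to 1598 in the rAAV-Lmo3 pools. All 7 lay below 0, with a median of -0.37, and none had an unadjusted p under 0.05. This direction rested on rAAV-YFP 3, which had the sum of 2748. Without it 4 lay below 0 and 3 above, with a median of -0.08. Progenitor and fibroblast markers (10 of 10) summed to 15503 to 19378 against 15833 to 19814, lowest on rAAV-YFP 2 (15503) and rAAV-Lmo3 1 (15833), the arrays that were also lowest for Saa3, Lcn2 and the macrophage markers. Adipocyte markers (11 of 11) summed to 78160 to 92493 against 74642 to 90460 and were highest on the same arrays (92493 and 90460). Of these 11, 2 lay above 0 and 9 below, but 9 above and 2 below without rAAV-YFP 2, and 7 above and 4 below without rAAV-Lmo3 3. Lep, the leptin gene, was the 1 that lay lower without overlap (-0.28 ± 0.12), where 5.95% of all genes did. Endothelial markers (9 of 9) summed to 10218 to 12971 against 8838 to 11447, highest on rAAV-YFP 2 and lowest on rAAV-Lmo3 1. Of these 9, 8 lay below 0 (4 below and 5 above without rAAV-YFP 2) and 1, Esam, a junction protein, had an unadjusted p under 0.05 and lay lower (-0.33 ± 0.13), where 2.4% of all genes did. T and NK cell markers (2 of 9) summed to 842 to 1101 against 803 to 827, B cell markers (2 of 5) to 479 to 776 against 484 to 675, and epididymal epithelium markers (0 of 12) to 605 to 679 against 565 to 625. Cd3e, a T cell receptor subunit and 1 of the 2 tested T and NK cell markers, had an unadjusted p under 0.05 and lay lower, where 2.4% of all genes did (-0.42 ± 0.17). Its groups did not overlap, where 5.95% of all genes lay lower without overlap. The calls of Esam and Cd3e were each lost when single arrays were left out, rAAV-Lmo3 1 among them. The summed ranges of the groups did not overlap for T and NK cell markers, of which 7 of 9 lay below the limit, and for neutrophil markers they met at 829. The part of these cell types in the level of the members was not tested.

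**Figure D5:**
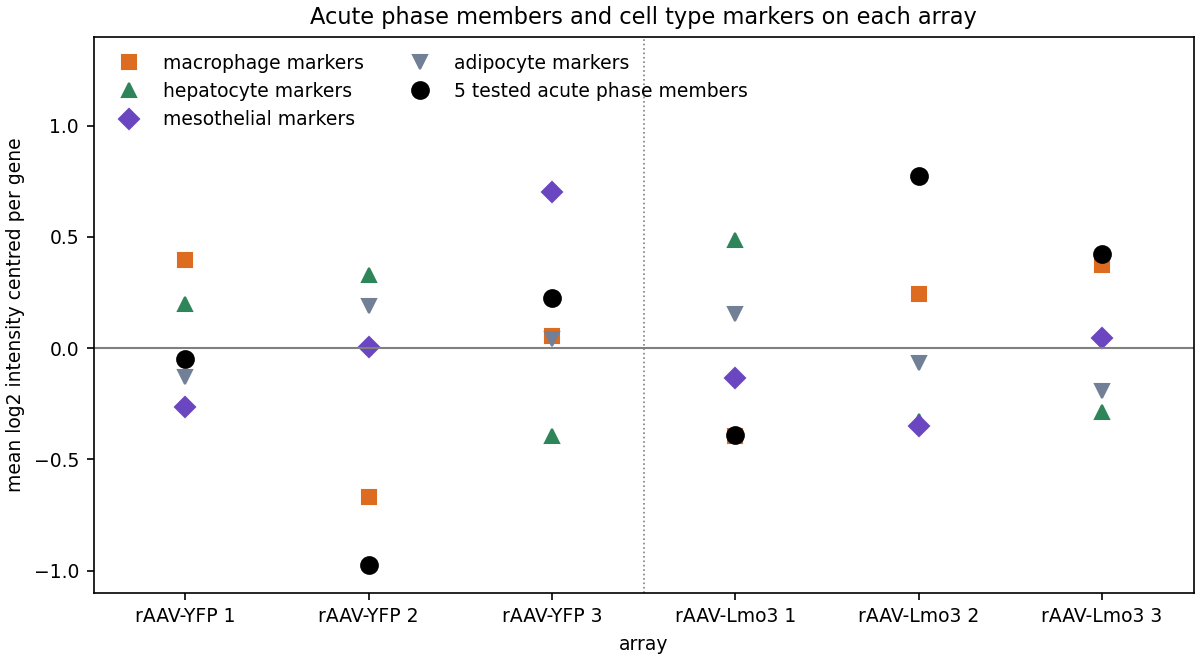
Mean log2 intensity, centred per gene, of the 5 tested acute phase members and of the macrophage, hepatocyte, mesothelial and adipocyte markers on each of the 6 arrays. The members run from -0.98 on rAAV-YFP 2 to 0.77 on rAAV-Lmo3 2, macrophage markers are low on rAAV-YFP 2 and rAAV-Lmo3 1 as the members are, and hepatocyte and adipocyte markers are high on them.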

How the data were processed

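Total RNA of eWAT was run on 6 Affymetrix Gene ST mouse arrays (3 rAAV-YFP, 3 rAAV-Lmo3). The deposited values were linear intensity values per probe set, rounded to whole numbers, which the authors had summarised by RMA in Affymetrix Expression Console 1.1 (submitters' processing notes). Log2 of the deposited intensity was taken here, and near 15 the rounding is coarse. Of 35556 probe sets 21789 carried 1 gene symbol, 1621 several and 12146 none, and 21698 were found in the GRCm38.p6 gene table. The brightest probe set per symbol was kept, the dimmest 40% of genes (7975) were left out, and limma 3.58.1 (R 4.3.3) was fitted to the other 11963 (two-sided, Benjamini-Hochberg over all genes). Single members were compared by an exact two-sided permutation test. The steps were tested on simulated data. Precision is limited by the number of arrays.

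The members, gene lists and marker lists were chosen with earlier results of these data known. Named were the members, Lmo3, the 3 genes of smallest p in each list, and the 6 genes of the most similar profile. Of the marker lists mainly counts and summed levels are given. Further genes (Ager, Agt, Alb, Cd3e, Cebpd, Csf3r, Esam, Lbp, Lep, Lifr, Lrg1, Orm3, S100a9, Socs3, Steap4, Tnfaip3, and genes listed by their lowest array or as absent markers) were named after their values were seen. The 17 alternatives changed the filter, scaling, weights, prior, test, probe set summary, an offset of 16, a replicate block, and the arrays included.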

Additional observations from a re-analysis of the deposited data

How the results depend on the processing

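Across 17 alternatives and 25 single genes, 357 of 371 values kept the sign of the reported difference and 14 did not, and 0 had an adjusted p under 0.05. Sign changes were limited to Clcf1 (0.0161 with each array centred on its median, 0.0186 with a second quantile normalization, 0.0211 with array weights, 0.0283 without rAAV-YFP 2 and rAAV-Lmo3 1 together), Serpina3n (0.17 with array weights, 0.14 without both arrays) and Orm1. With 1 array left out Clcf1 lay between -0.0792 and 0.0320, Serpina3n between -0.27 and 0.35, and Orm1 between -0.19 and 0.13. Hp lay between 0.09 and 0.42, which was also the range of the median over the tested members. The number of members at an unadjusted p under 0.05 was 2 with array weights (Saa3 and Lcn2) and 2 without both arrays, and 0 to 2 with 1 array left out. Members without overlap were 3 without both arrays and 0 to 3 with 1 array left out, 3 only without rAAV-Lmo3 1. For the further acute phase genes the number at an unadjusted p under 0.05 was 2 with array weights, 3 without both arrays and 0 to 4 with 1 array left out. For the pathway genes it was 3 without the dimmest 60% of genes, 3 without both arrays and 1 to 5 with 1 array left out. It was lowest without rAAV-Lmo3 3, and these were not always the same genes. Over all 11963 genes, 349 were higher and 374 lower at that p with array weights, and 282 and 220 without both arrays. With 1 array left out 122 to 404 were higher and 140 to 339 lower. Without the dimmest 60% of genes 205 of the genes kept were higher and 214 lower. The causes were not tested beyond the samples and genes each setting leaves out.

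Deviations from the group means correlated at -0.55, -0.40 and 0.26 between arrays of the same replicate number. With 3 arrays per group, and in each group an array that stood apart, these values cannot decide whether the numbers pair the samples. The sample labels do not say so. With the replicate block 0 members had an unadjusted p under 0.05, the median over the members was 0.29, and members without overlap were 0. Further acute phase genes at that p were 0 and pathway genes 4, where 216 of 11963 genes were higher and 237 lower. The methods' t-test called 0 of 11963 genes after Benjamini-Hochberg adjustment, and 0 members at an unadjusted p under 0.05.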
